A study of Mus musculus with 30 samples.

Results

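The genes described here are 43 genes of the cell division cycle and of DNA replication, chosen by symbol from a fixed list and not by their values. All 43 were found once in the lung table of 19470 entries and once in the spleen table of 18845 entries. They fall into 8 roles: 7 mitotic cyclins and kinases, 5 genes of the spindle checkpoint and anaphase promotion, 10 of the kinetochore, chromosomal passenger complex and spindle, 3 other division genes (Mki67, Top2a and Cdca3), 4 of the G1/S transition, 9 of replication licensing and the helicase, 4 of DNA synthesis and nucleotide supply, and Cdkn1a alone as an inhibitor of cyclin-dependent kinases.

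A dividing cell first commits to S phase, when E2F factors release the genes of cyclin E, of the MCM helicase and of nucleotide synthesis, and later switches on a second wave of genes for mitosis through the MuvB complex, NF-Y and FOXM1. Transcripts of both waves are low in resting tissue, so in whole organs they are read mostly as a mark of cycling cells. Cdkn1a encodes p21, which blocks cyclin-dependent kinases and PCNA, and is induced by p53 and by inflammatory signals in cells that do not divide. Adult lung holds few cycling cells, whereas the mouse spleen holds dividing lymphocytes and, in its red pulp, dividing erythroid and myeloid precursors.

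Messenger RNA was sequenced from lung and spleen of C57BL/6 mice aged 8 weeks. Wild type mice were compared with a lincRNA-Cox2 mutant line and a knockout line of the same gene, whose alleles the labels do not describe. Of 5 libraries per genotype and tissue, 3 were from mice injected intraperitoneally with 20 mg/kg of lipopolysaccharide (LPS), the endotoxin of Gram-negative bacteria, 6 h earlier, and 2 from mice labelled PBS. Values are the authors' group means of normalised read counts, with no spread between libraries, and the labels do not say whether libraries are separate animals, so an adjusted p-value measures the spread between these libraries only.

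LincRNA-Cox2 itself, as a check of the labels, had a mean of 34.8 (PBS) and 30.2 (LPS) in wild type lung and was listed at 0 in all 4 lung groups of the mutant and the knockout. In spleen it was low in wild type too, at 2.13 and 3.53, and between 0 and 0.32 in the lines. Lung libraries held an estimated 5.20 M to 17.3 M reads, and those of spleen 0.94 M to 8.95 M, where 1 mutant LPS library was shallow, with a size factor of 0.187. The groups also differed in sex-linked transcripts. Xist, the RNA of the inactive X chromosome, had a mean of 4510 in mutant LPS lung against 14.5 in wild type and 23.2 in knockout LPS lung, and of 4670 against 31.3 and 33.7 in spleen; the 4 Y-linked genes measured (Ddx3y, Eif2s3y, Kdm5d and Uty) were low where Xist was high. All 6 PBS groups held both. Mutant LPS libraries therefore differed from the other LPS libraries in genotype and in sex-linked RNA together, and for the comparisons under LPS that involve the mutant these cannot be told apart. The same holds for every ratio of LPS to PBS: wild type lung Xist went from 3660 to 14.5 and that of the knockout from 1910 to 23.2, while Ddx3y of mutant lung went from 317 to 4.73. Treatment and sex-linked RNA therefore differed together in each genotype and tissue, and cannot be told apart in these ratios.

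Promoters were inspected first, since members of the 2 waves are known to carry different elements. RefSeq windows of 300 bases (250 before and 50 after the start, GRCm38.p6) were held for 36 of 43 members, in 40 windows, out of 32851 windows in all. The 7 members with no window were Ccne2, Ccna2, Aurkb, Mcm4, Tpx2, Kif20a and Gins2. Windows are shown for the 2 members that passed the authors' test (Mki67 and Cenpf), for the mitotic cyclin and the licensing gene with high LPS ratios in lung (Ccnb1 and Mcm10), for a helicase subunit holding the E2F motifs (Mcm3), and for Cdkn1a. Capitals mark matches, on either strand, to CCAAT, to the element TTTGAA, and to the E2F motifs TTTGGCGC and, as a second form, TTTCCCGC. No 2 matches overlap in the windows shown.
Mki67, chr7:135716330-135716629, minus strand: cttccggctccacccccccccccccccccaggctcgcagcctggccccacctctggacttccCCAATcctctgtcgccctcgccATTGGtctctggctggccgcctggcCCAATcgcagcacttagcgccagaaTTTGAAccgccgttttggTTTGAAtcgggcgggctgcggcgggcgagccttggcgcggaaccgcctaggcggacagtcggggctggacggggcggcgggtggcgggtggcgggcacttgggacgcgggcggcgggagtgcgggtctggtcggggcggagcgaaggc
Cenpf, chr1:189688037-189688336, minus strand: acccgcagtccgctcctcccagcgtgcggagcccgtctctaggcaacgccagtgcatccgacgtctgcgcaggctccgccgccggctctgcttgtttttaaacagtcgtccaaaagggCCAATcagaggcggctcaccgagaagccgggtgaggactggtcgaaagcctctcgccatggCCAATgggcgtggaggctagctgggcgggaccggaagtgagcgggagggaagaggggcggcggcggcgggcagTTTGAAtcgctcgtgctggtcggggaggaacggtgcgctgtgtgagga
Ccnb1, chr13:100786437-100786736, minus strand: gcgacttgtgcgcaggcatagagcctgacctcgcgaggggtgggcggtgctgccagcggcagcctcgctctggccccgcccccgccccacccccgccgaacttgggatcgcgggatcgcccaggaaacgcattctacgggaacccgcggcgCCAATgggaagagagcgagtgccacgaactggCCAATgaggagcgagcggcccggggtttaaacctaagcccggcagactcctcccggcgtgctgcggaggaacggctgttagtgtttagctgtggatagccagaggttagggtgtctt
Mcm10, chr2:5012742-5013041, minus strand: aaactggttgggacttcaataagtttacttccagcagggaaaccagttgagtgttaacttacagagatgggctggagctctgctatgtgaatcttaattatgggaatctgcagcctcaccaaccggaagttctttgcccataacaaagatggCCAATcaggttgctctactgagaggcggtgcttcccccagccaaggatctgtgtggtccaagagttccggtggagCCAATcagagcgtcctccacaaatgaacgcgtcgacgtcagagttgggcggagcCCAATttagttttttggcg
Mcm3, chr1:20820263-20820562, minus strand: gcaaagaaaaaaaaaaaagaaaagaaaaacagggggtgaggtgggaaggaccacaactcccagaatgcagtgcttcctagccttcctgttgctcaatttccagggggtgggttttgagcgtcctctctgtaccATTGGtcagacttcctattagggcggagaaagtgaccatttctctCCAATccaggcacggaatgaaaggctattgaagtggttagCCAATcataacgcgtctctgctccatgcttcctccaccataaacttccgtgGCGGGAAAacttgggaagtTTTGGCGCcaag
Cdkn1a, chr17:29090729-29091028, plus strand: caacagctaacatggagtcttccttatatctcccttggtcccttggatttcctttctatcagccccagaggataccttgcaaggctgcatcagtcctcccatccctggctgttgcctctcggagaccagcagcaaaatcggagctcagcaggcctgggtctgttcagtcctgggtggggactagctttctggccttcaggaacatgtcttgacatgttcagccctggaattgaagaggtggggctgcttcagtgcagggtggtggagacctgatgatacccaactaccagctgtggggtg

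CCAAT, the letters bound by NF-Y, stood in 30 of the 40 member windows (75.0%) against 37.4% of all windows of this length. It was in 19 of 22 windows of mitotic members and in 11 of 16 windows of G1/S and replication members. TTTGAA, the core of the element known as CHR through which MuvB acts, was uneven between the classes: it stood in 16 of 22 mitotic windows (72.7%) and in 1 of 16 G1/S and replication windows (6.25%), that of Mcm2, against 17.9% of all windows. The 2 E2F motifs had the reverse distribution, with 5 of 16 G1/S and replication windows (31.25%) holding at least 1 of them, 0 of 22 mitotic windows and 1.56% of all. Those 5 were windows of Mcm3, Mcm5, Mcm7, Cdc6 and Cdt1. In the Mki67 window shown, 3 CCAAT and 2 TTTGAA lie upstream of the start, and in that of Cenpf the TTTGAA begins at base 3, counting the first transcribed base as 1. The Ccnb1 window holds 2 CCAAT and no TTTGAA. The Mcm10 window holds 3 CCAAT and no full match to the other elements. It ends in tttggcg, so whether the E2F motif TTTGGCGC runs across its edge cannot be read from it. Cdkn1a has 2 windows, the one shown and chr17:29093519-29093818, and neither holds any of the 4. Windows of 1 gene can overlap, as for Prc1, and a match is a description of letters only.

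In lung, the members as a class stood higher with LPS than with PBS in each genotype. The log2 ratio of the authors' means (pseudocount of 1) had a median over members of 1.03 (wild type), 0.71 (mutant) and 1.17 (knockout), against -0.03, -0.03 and -0.01 over all entries with a mean of at least 10. At least 2-fold higher were 22 of 43 members in wild type against 13.9% of all entries, 17 in the mutant against 15.5%, and 25 in the knockout against 16.9%. With a pseudocount of 10 the mutant count was 9. At least 2-fold lower were 1, 0 and 1 members, against 14.3%, 16.0% and 17.7% of all entries; the member was E2f1. Past 2-fold in all 3 genotypes were 15 of 43, and above 0 in all 3 were 38. Neither joint count was made over all entries. In wild type, mutant and knockout taken singly, 7260 of 15041, 7384 of 15092 and 7504 of 15208 entries were above 0. These ratios of means have no test and no replicate check; the counting error of a member's log2 ratio, from the estimated depths, had a median of 0.18, 0.17 and 0.16 and covers counting only. In bulk tissue, more or fewer cells of a type and more or less RNA per cell cannot be told apart.

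**Figure D1:**
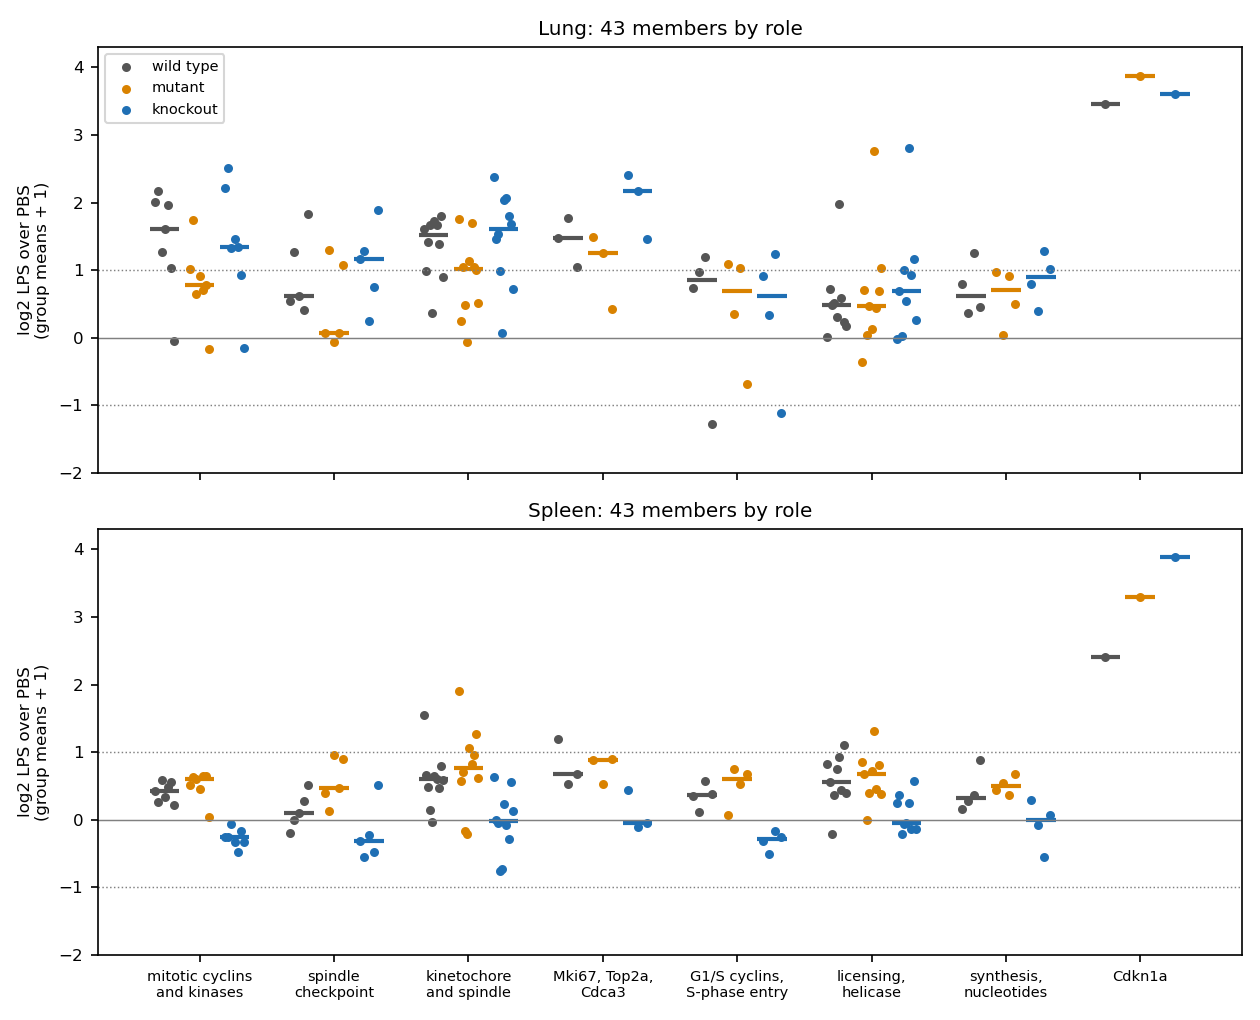
Log2 ratio of the LPS to the PBS group mean (pseudocount of 1) for each of 43 members, by role, in lung (top) and spleen (bottom); points are members, bars are role medians, colours are genotypes and dotted lines mark 2-fold. In lung the mitotic roles lie mostly above 0 in the 3 genotypes, while in spleen knockout members other than Cdkn1a lie below 1.

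The mitotic cyclins and kinases drive entry into mitosis. Their median lung ratio was 1.61, 0.78 and 1.35 in the order wild type, mutant, knockout. Ccnb1, cyclin B1, the partner of Cdk1, went with LPS from 19.4 to 90.5 in wild type, from 14.8 to 51.8 in the mutant and from 15.7 to 94.5 in the knockout. These are log2 ratios of 2.17, 1.74 and 2.52, with counting errors of 0.24 to 0.25. Cdk1, the mitotic kinase, had means of 23.3, 28.5 and 20.2 with PBS and 97.0, 58.4 and 97.1 with LPS (wild type, mutant, knockout). Aurka, the centrosomal Aurora kinase, had ratios of 1.96, 0.71 and 1.35, and Ccna2, cyclin A2, of 1.61, 0.91 and 1.46. Exons of Ccna2 overlap those of Exosc9 on the opposite strand, and whether counting used strand is not stated. The same overlap with a gene on the opposite strand holds for Ccne2, Plk1, Cdc20, Kif20a, Ube2c, Cdca8, Nusap1, Prc1, Mcm7, Gins2 and Cdkn1a. Ccnb2 and Aurkb, the second B-type cyclin and the kinase of the passenger complex, were at 1.26 and 1.03 in wild type.

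Plk1, the Polo kinase of mitotic entry and cytokinesis, stood apart from its role. Its lung means were 686, 670 and 686 with PBS and 664, 600 and 620 with LPS, so the ratios lay between -0.16 and -0.05 with a counting error of 0.05 in each. Its exons overlap those of Gm44985 on the opposite strand. Per kilobase of longest transcript, its level in wild type PBS lung was 312, second among members after Pcna at 355, while Ccnb1 was at 7.8 and Cdk1 at 5.3. The highest 6 members of resting lung by this measure were Pcna, Plk1, Cdkn1a, Mcm7, Mcm4 and Mcm3, and a wide gap separated Cdkn1a, at 266, from Mcm7, at 74.3.

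Genes of the spindle checkpoint, which holds anaphase until chromosomes are attached, were mixed. Bub1b, the BubR1 kinase of the checkpoint, went from 65.1 to 158 in wild type, 61.2 to 152 in the mutant and 63.5 to 156 in the knockout, ratios of 1.27, 1.30 and 1.28. Its 3 genotypes were thus nearly alike. Ube2c, the ubiquitin-conjugating enzyme of the anaphase promoting complex, had ratios of 1.84, 1.08 and 1.89. Its exons overlap those of Tnnc2, a skeletal muscle troponin, whose knockout lung means were 260 with PBS and 46.8 with LPS against 1.35 to 2.64 in the other 4 lung groups, in step with a muscle marker sum of 2872 in knockout PBS lung. Bub1 was at 0.55, 0.07 and 1.17, and Mad2l1 and Cdc20, an inhibitor and an activator of the complex, stayed below 1 in all 3 genotypes, at 0.62, -0.06 and 0.25 and at 0.41, 0.08 and 0.74.

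Kinetochore and spindle genes had the second highest role median in wild type lung among roles of more than 3 genes, at 1.52, with 1.02 in the mutant and 1.61 in the knockout. Cenpe, the kinetochore motor that brings chromosomes to the metaphase plate, had means of 37.8, 26.2 and 34.3 with PBS and 118, 91.2 and 182 with LPS. Birc5, survivin of the passenger complex, had ratios of 1.67, 1.69 and 2.07, and Tpx2, a spindle assembly factor and activator of Aurora A, of 1.73, 1.13 and 2.04. Nusap1, a microtubule binder of the spindle, had 1.81, 1.00 and 1.68, Cdca8 (borealin) 1.38, 1.04 and 1.80, and Kif11, the motor that separates the poles, 1.42, 1.05 and 1.54. The genes of the central spindle and cytokinesis were less uniform: Kif20a was at 1.67, 0.48 and 0.99, Prc1, which bundles midzone microtubules, at 0.91, 0.51 and 0.72, and Kif23 at 0.37, -0.06 and 0.07. Of the remaining division genes, Mki67, the Ki-67 antigen that coats mitotic chromosomes, had 1.47, 1.49 and 2.41, Top2a, topoisomerase II alpha, 1.77, 1.26 and 2.17, and Cdca3, which acts in mitotic entry, 1.04, 0.42 and 1.46.

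Replication genes stood closer to their PBS levels. Median ratios in lung were 0.49, 0.47 and 0.68 for licensing and the helicase, and 0.62, 0.71 and 0.91 for DNA synthesis and nucleotide supply. The 17 G1/S and replication members held 3, 4 and 6 genes past 2-fold upwards in the 3 genotypes, against 18, 12 and 18 of the 25 mitotic members. Mcm2, a subunit of the replicative helicase, was at 128, 144 and 139 with PBS and 129, 112 and 137 with LPS. Mcm4 had ratios of 0.49, 0.04 and 0.02, Mcm7 of 0.31, 0.13 and 0.55, Mcm5 of 0.51, 0.47 and 1.00 and Mcm3 of 0.72, 0.71 and 0.68. Of the loading factors, Cdc6 was at 0.58, 0.44 and 0.93 and Cdt1 at 0.23, 0.69 and 1.16. Gins2, a subunit of the active helicase, was the lowest member in 5 of the 6 lung groups (means of 6.98 to 15.3), and its counting error reached 0.40.

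Mcm10, which joins the helicase when origins fire, was the exception among licensing genes. Its lung means were 18.8, 16.4 and 13.3 with PBS and 77.2, 117 and 99.5 with LPS, ratios of 1.98, 2.76 and 2.81 with counting errors of 0.26, 0.23 and 0.25. It was the second highest member ratio, after Cdkn1a, in the mutant and the knockout. Pcna, the sliding clamp, had 0.79, 0.97 and 0.80, and Rrm2, the regulated subunit of ribonucleotide reductase, had 1.26, 0.92 and 1.28, while Rrm1, its partner, had 0.37, 0.04 and 0.39. Tyms, thymidylate synthase, had 0.45, 0.50 and 1.02.

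E2f1, the activator of S-phase genes, was the member lowest against PBS in all 3 genotypes of lung. Its means went from 110 to 44.8 in wild type, from 90.7 to 56 in the mutant and from 98.1 to 44.7 in the knockout, log2 ratios of -1.28, -0.69 and -1.12 with counting errors of 0.15 to 0.18. The cyclins E, which it is known to induce, were low, with Ccne1 between 8.93 and 22.9 and Ccne2 between 16.3 and 32.9, and their ratios ran from 0.33 to 1.09. Uhrf1, which maintains DNA methylation behind the fork, had 1.20, 1.03 and 1.24.

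Cdkn1a had the highest ratio of all members in every genotype and tissue. In lung its means went from 554 to 6110 in wild type, from 495 to 7270 in the mutant and from 473 to 5780 in the knockout, which are 11.0-fold, 14.7-fold and 12.2-fold higher with the pseudocount. In spleen they went from 119 to 634, from 64.6 to 644 and from 62.9 to 947, or 5.29-fold, 9.83-fold and 14.8-fold. The spleen ratios thus followed the order wild type, mutant, knockout, while the PBS level was highest in wild type. In the authors' deposited table no genotype comparison of Cdkn1a passed the threshold: under LPS, knockout over wild type spleen was 0.55 (log2, adjusted p 0.619563), and knockout over mutant 0.53 at 0.517167.

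**Figure D2:**
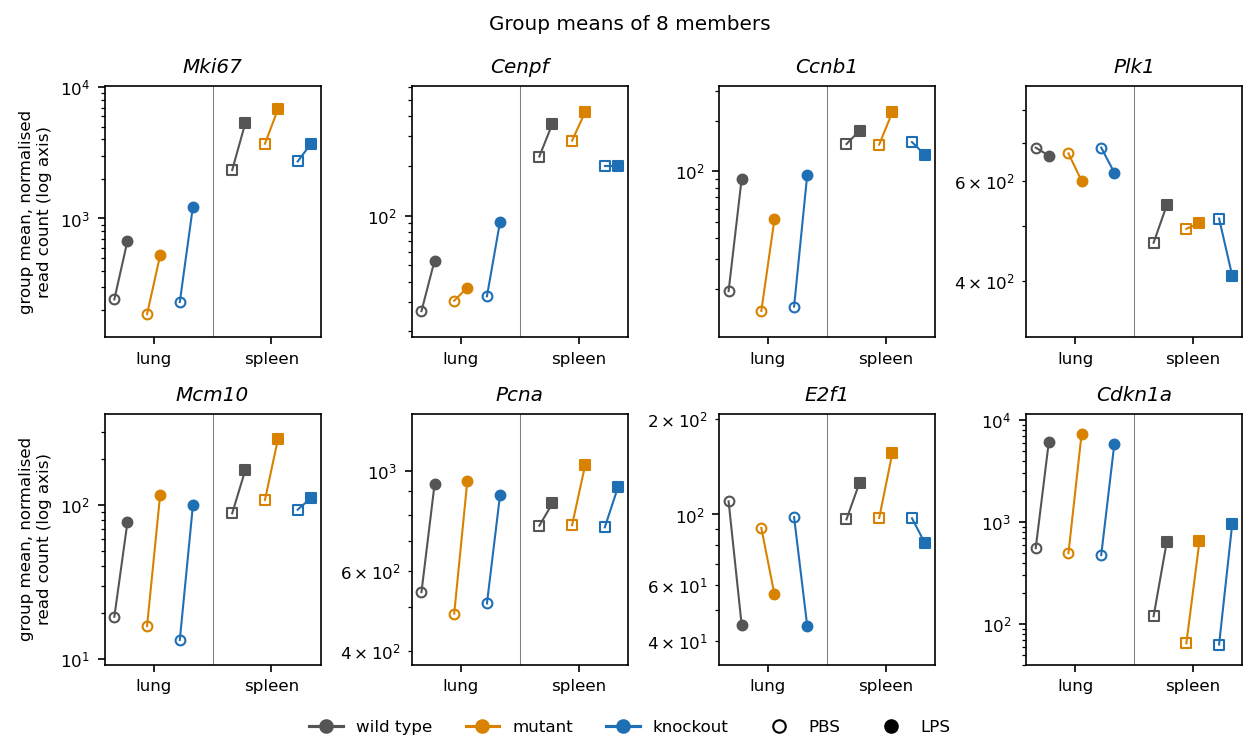
Group means (normalised read count, log axis) of 8 members, for lung (circles) and spleen (squares), joined from PBS (open) to LPS (filled) within each genotype; each point is the authors' mean of 2 or 3 libraries and the tissues were normalised separately. Cdkn1a is higher with LPS in all 6 pairs, E2f1 is lower in the 3 lung pairs, and Plk1 in lung lies between 600 and 686 throughout.

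The entries whose 6 group means were most like those of Cdkn1a were, in lung, Csf3, Cr1l, Aim1, Dhx8 and Car13, with Pearson r from 0.9996 to 0.9998 among 11942 entries with an overall mean of at least 50. In spleen they were Diap2, Irf1, Cd274, Gbp9 and Ehd1, with r from 0.999 to 0.9996 among 9693. With 6 means that mostly split into PBS and LPS, such an r describes the likeness only. Of the 18 p53 target genes listed, 6, 5 and 6 were at least 2-fold higher with LPS in lung and 5, 6 and 9 in spleen (wild type, mutant, knockout), and 0 were 2-fold lower; of all entries 13.9%, 15.5% and 16.9% were that much higher in lung and 13.5%, 15.3% and 16.6% in spleen. Pmaip1 and Fas, which promote cell death, had the highest ratios of the list in wild type lung, where their means went from 197 to 1120 and from 428 to 2300, and Phlda3 and Bbc3 the lowest, at -0.74 and -0.60, although Bbc3 was at 0.14 and 0.13 in the mutant and knockout. In wild type spleen Plk2 and Bbc3 were highest, at 2.38 and 2.14, and Ccng1 and Perp lowest, at -0.64 and -0.62. Perp was instead at 2.30 in the mutant and 2.04 in the knockout spleen. Of the other inhibitors of cyclin-dependent kinases, 3 were lower with LPS in each genotype of lung: Cdkn2c (p18) had ratios of -1.80, -2.30 and -2.44, Cdkn1c (p57) of -0.90, -1.17 and -1.41 and Cdkn1b (p27) of -0.43, -0.89 and -0.88. Cdkn2d (p19) had 1.55, 1.79 and 1.76. In wild type spleen Cdkn2b (p15) and Cdkn2d were highest at 1.48 and 0.51, and Cdkn1c and Cdkn1b lowest at -1.61 and -0.04.

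In spleen the members differed less between LPS and PBS than in lung. The median log2 ratio over members was 0.48 for wild type, 0.63 for mutant and -0.10 for knockout spleen, against 0.02, 0.00 and -0.02 over all entries. At least 2-fold higher were 4 of 43 members in wild type (13.5% of all entries), 5 in the mutant (15.3%) and 1 in the knockout, Cdkn1a (16.6%), and 0 of 43 were 2-fold lower in any genotype, against 14.8%, 16.7% and 18.7% of all entries. These shares of members past 2-fold are thus below or near those of all entries. Above 0 were 39, 41 and 13 of the 43, against 6855 of 13513, 6743 of 13515 and 6624 of 13514 entries in all. Counting errors of the log2 ratio had a median of 0.07, 0.09 and 0.08.

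Mki67 had spleen means of 2340, 3710 and 2720 with PBS and 5330, 6830 and 3700 with LPS (wild type, mutant, knockout), ratios of 1.19, 0.88 and 0.44. Cenpe, at 1.55, 1.91 and 0.63, was second to Cdkn1a in all 3 genotypes. Nusap1 was at 0.80, 1.27 and 0.55, Tpx2 at 0.65, 1.07 and 0.23, Mcm10 at 0.93, 1.31 and 0.25 and Cdt1, a licensing factor, at 1.10, 0.81 and 0.57. The knockout ratio was the lowest of the 3 for each of them. At the other end, Kif20a and Kif23, the motors of cytokinesis, were at 0.15 and -0.04 in wild type, -0.16 and -0.21 in the mutant and -0.76 and -0.73 in the knockout, and Mcm4 at -0.21, 0.00 and -0.21. Bub1 was at -0.20 in wild type and Rrm2 at -0.55 in the knockout. All 7 mitotic cyclins and kinases were above 0 in wild type and the mutant and below 0 in the knockout, with medians of 0.43, 0.61 and -0.25. E2f1, low with LPS in lung, went from 96.5 to 126 in wild type spleen and from 97.3 to 81.1 in the knockout.

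Within the spleen table, levels per kilobase in wild type PBS were highest for Pcna at 498, followed by Mki67 at 233, Rrm2 at 220, Ube2c at 218, Plk1 at 212 and Ccna2 at 180. Plk1 was therefore close to Mki67, Ube2c and Ccna2 there, but above Ccnb1 at 58.3 and Cdk1 at 38.6. In lung Mki67 was at 24.0 against 312 for Plk1.

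Genotypes were compared under LPS with the authors' test. In lung, knockout over mutant was the comparison in which members passed: of 43 tested, 2 did, both higher, against 0.243% of all entries tested. In the authors' deposited table Mki67 was 1.19 higher (log2, adjusted p 0.0136), from LPS means of 1232 in the knockout, 525 in the mutant and 673 in wild type. Cenpf, a large kinetochore and nuclear matrix protein (chr1:189640606-189688086, minus strand, GENCODE M21 on mm10), was 1.28 higher (adjusted p 0.0333) by the authors' deposited table, from means of 91.7, 36.7 and 53.5. With PBS these genes did not stand so: Mki67 was at 231, 187 and 242 and Cenpf at 32.6, 30.7 and 26.5 (knockout, mutant, wild type), and neither was called in the authors' deposited table. By the ratio of the means alone, without a test, the knockout was 2.34-fold above the mutant for Mki67 and 2.46-fold for Cenpf, and wild type lay between the lines for both genes. By this ratio 4 of 43 members were at least 2-fold higher in the knockout (with Bub1 and Ube2c), against 2.22% of all entries.

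The same direction ran through the mitotic members. All 25 had a fold above 0 in knockout over mutant lung under LPS in the authors' deposited table, with a median of 0.75, while the 17 G1/S and replication members had 10 above 0 and a median of 0.29; over all entries 9488 folds were above 0 and 9600 below, with a median of 0.00. Next after the called genes came Ube2c at 0.99 with an adjusted p of 0.121053, Bub1 at 0.98 with 0.475701 and Cenpe at 0.96 with 0.091, none past the threshold in the authors' deposited table. The members below 0 were Ccne1 at -0.34, Cdkn1a at -0.33, E2f1 at -0.32, Gins2, Mcm10, Pcna, Mcm3 and Mcm4, 8 in all. The mutant held the lowest of the 3 LPS means for 35 of 43 members. The same count over all entries was not made.

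**Figure D3:**
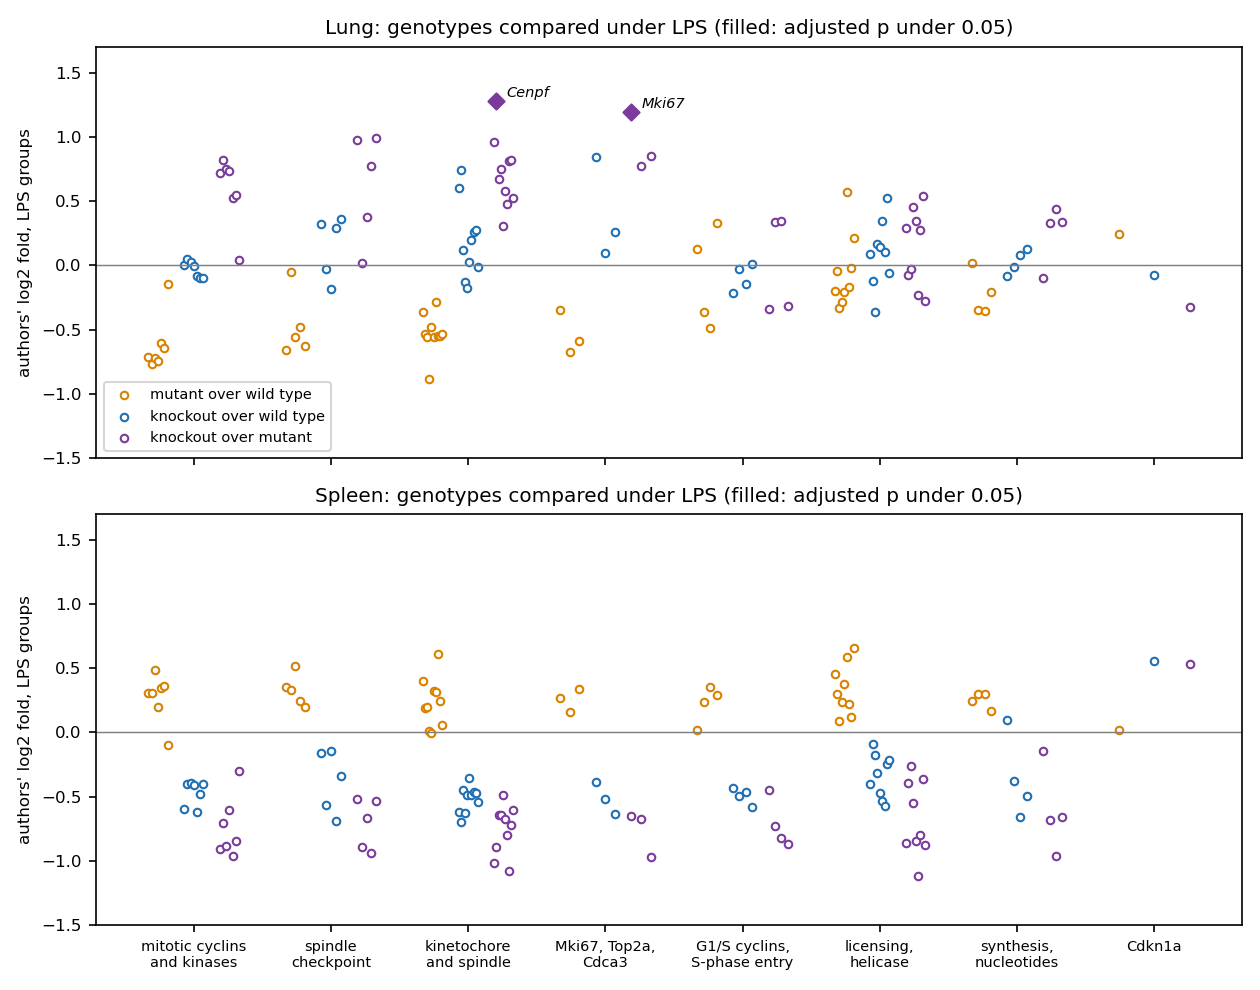
The authors' log2 fold for each of 43 members in the 3 genotype comparisons under LPS, by role, in lung (top) and spleen (bottom); filled diamonds are members with an adjusted p under 0.05, open circles all others. Only Mki67 and Cenpf are filled, in knockout over mutant lung, and in spleen every knockout over mutant fold except that of Cdkn1a lies below 0.

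The mutant against wild type and knockout against wild type comparisons of lung under LPS called 0 of 43 members each, against 0.0715% and 0.441% of all entries. In the authors' deposited table the median member fold was -0.36 in mutant over wild type, with 37 of 43 and all 25 mitotic members below 0. Over all entries 10031 folds were above 0 and 9119 below, with a median of 0.02. The smallest adjusted p of the members in the authors' deposited table was 0.602448, for Kif20a at -0.88. Knockout over wild type had a median of 0.03 in the authors' deposited table, with Mki67 at 0.85 (adjusted p 0.178), Cenpf at 0.74 (0.368) and Cenpe at 0.60 (0.423) as its 3 highest members. The mutant LPS group enters 2 of these 3 comparisons, which therefore share their libraries. DESeq2 is the tool the submitters' notes name for such tests, and unadjusted p-values were not used here.

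In spleen under LPS 0 of the 39 members with an adjusted p passed in any comparison, against 0.00545% of all entries in mutant over wild type, 0.0241% in knockout over wild type and 0.177% in knockout over mutant. Mki67, Cenpf, Cenpe and Cdc6 had no adjusted p there, so no call could be made for them. Their means over all spleen libraries were 4340, 290, 482 and 163, and why the value is missing was not tested. The folds of the authors' deposited table lay mostly on 1 side. In knockout over mutant 42 of 43 were below 0 with a median of -0.70. In knockout over wild type 41 were below 0 with a median of -0.47, and in mutant over wild type 41 were above 0 with a median of 0.29. Centring the folds on the median of all entries moved no member median by more than 0.026. Counts above and below 0 over all entries are not given here for spleen. The lowest knockout over mutant folds were those of Mcm10 at -1.12 (adjusted p 0.416351), Cdca8 at -1.08 (0.469555) and Cenpe at -1.02 in the authors' deposited table, and the smallest adjusted p was 0.334301, for Mcm2 at -0.86. By the ratio of means, without a test, 10 of 43 members were at least 2-fold lower in the knockout than in the mutant, against 5.51% of all entries: Cdk1, Ccnb2, Aurka, Cdc20, Cenpe, Cenpf, Cdca3, Cdca8, Mcm10 and Rrm2. The mutant LPS mean includes the shallow library described above, which weighs as much in the mean as the other 2, and its part in the result was not tested; the counting error of the member ratios in this comparison had a median of 0.09 and reached 0.28.

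With PBS no member was called in either tissue. In lung 0 of 43 passed in each comparison, against 0.00524% of all entries in mutant over wild type, 0.0421% in knockout over wild type and 0.0523% in knockout over mutant, and the median folds of the authors' deposited table were -0.10, -0.08 and 0.08. In spleen the shares of all entries were 0.0%, 0.16% and 0.0%, and the authors' deposited table gave medians of 0.15, 0.06 and -0.10, where knockout over wild type had adjusted p-values for only 18 members. In wild type PBS spleen 25 of 43 members had the lowest mean of the 3 genotypes, and in the mutant 31 had the highest. The same counts over all entries were not made.

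Other genes of the pathway were read from lists. Of 40 further replication genes, 1 was called in the knockout and 0 in mutant against wild type: Mcm6, the subunit of the MCM2-7 helicase that is not among the members (chr1:128331590-128359664, minus strand). Its lung means were 345, 299 and 104 with PBS and 450, 516 and 206 with LPS (wild type, mutant, knockout), so both knockout groups lay below all 4 others. In the authors' deposited table knockout over wild type was -1.68 with PBS (adjusted p 1.1e-06) and -1.11 with LPS (0.000498), and knockout over mutant -1.48 (6.57e-05) and -1.30 (4.41e-06). The 5 member subunits were not called in these comparisons; with PBS in lung Mcm2, Mcm3, Mcm4, Mcm5 and Mcm7 had knockout means of 139, 200, 282, 83.9 and 206 against 128, 212, 262, 105 and 220 in wild type. In spleen Mcm6 was not called, with a knockout over mutant fold under LPS of -1.0 (adjusted p 0.355202) in the authors' deposited table.

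Further replication genes (40, Mcm6 included) had median LPS ratios of 0.19, 0.09 and 0.24 in lung and 0.45, 0.54 and -0.07 in spleen. Timeless, of the fork protection complex, went from 225 to 946 in wild type lung and Orc1, of the origin recognition complex, from 1.60 to 11.9, while Pold1 (polymerase delta) and Gmnn (geminin, an inhibitor of Cdt1) were at -1.02 and -0.57. In wild type spleen Chaf1b, a chromatin assembly factor, and Pole, polymerase epsilon, were highest at 1.21 and 1.19, and Rpa1 and Cdc7 lowest at -0.83 and -0.64. The 47 further mitotic genes had medians of 0.83, 0.49 and 0.86 in lung and 0.43, 0.50 and -0.33 in spleen, the same order of genotypes as the members, and 0 of them were called. Cks2 and Sgol1, a partner of Cdk1 and the shugoshin of centromeres, were highest in wild type lung at 2.36 and 2.29, and Mad1l1 and Cdc25b lowest at -1.40 and -0.79. Pttg1 (securin) and Mybl2 were highest in wild type spleen at 1.58 and 1.57, and Pbk and Anln lowest at -0.37 and -0.20.

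Upstream of S phase, Myc went from 71.4 to 803 in wild type lung (ratios of 3.47, 3.54 and 4.31 over the genotypes) and from 283 to 2070 in wild type spleen, and Ccnd2, cyclin D2, from 1670 to 3280 and from 1080 to 5090. The lowest of these G1 genes in wild type were Cdk6 (-0.47) and Cdk2 (-0.22) in lung and Mycn (-1.18) and Ccnd1 (-0.69) in spleen. Lung Cdk6 was at 0.18 (mutant) and 1.24 (knockout). The authors' deposited table gave 1.25 for its knockout over wild type fold under LPS (adjusted p 0.0695). Among E2F and pocket proteins Rbl1 (p107) was highest in wild type lung at 1.26, followed by E2f8 at 1.10, and Rbl2 (p130), the pocket protein of resting cells, was lowest in both tissues, at -0.76 in lung and -1.44 in spleen, followed by E2f6 at -0.43 and -0.44. In wild type spleen the highest were E2f8 at 0.93 and Rbl1 at 0.77. None of these genes was called between genotypes.

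Markers of dividing precursors and of other cells were read in the same groups as the members. In lung all 6 markers of neutrophil progenitors (Elane, Mpo, Prtn3, Ctsg, Ms4a3 and Fcnb) were found; their summed mean was 11.1 to 12.5 in the PBS groups and 622, 453 and 559 in wild type, mutant and knockout with LPS, and Ctsg and Ms4a3 were listed at 0 in a PBS group. The 8 erythroid markers summed to 2407 to 2520 with PBS and to 3461, 3138 and 4972 with LPS, none at 0 in a group. Alas2 made up most of each of these sums, with wild type means of 1740 (PBS) and 2210 (LPS). By the LPS ratio, 6 of the 7 erythroid markers with a mean of at least 10 were above 0 in each genotype. Epor was instead lower with LPS, at -1.75, -1.67 and -1.55 (wild type, mutant, knockout). The 42 members other than Cdkn1a summed to 4008, 3791 and 3906 with PBS and to 7006, 5712 and 7712 with LPS. The mutant was thus lowest under LPS for members, neutrophil progenitor and erythroid markers alike. The highest under LPS was the knockout for members and erythroid markers, but wild type for neutrophil progenitors. In knockout over mutant lung under LPS the erythroid markers had a median fold of 1.43 in the authors' deposited table, with 7 of 8 above 0 and 0 called, and the neutrophil progenitors 0.35 with 6 of 6 above 0. B cell markers summed to 1105, 1594 and 1489 with PBS and 645, 1004 and 1427 with LPS (Pax5 was called higher in the knockout than in wild type), T cell markers to 700 to 835 and 403 to 601, and megakaryocyte markers to 408 to 573 and 1839 to 2602. Neutrophil markers, of cells that no longer divide, summed to 2280 to 2843 and 15845 to 18664. Of the 6 germinal centre markers (summed 1126 to 1236 and 3246 to 3737), Fas, also in the p53 list, went from 428 to 2300 in wild type, whereas S1pr2 and Mybl1 had the lowest ratios, and the list's median ratios were 0.83, 0.57 and 0.08. The part of these cells in the member results was not tested.

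In spleen the 42 members summed to 13413, 16133 and 14046 with PBS and to 20907, 26170 and 14904 with LPS. The neutrophil progenitor markers summed to 663, 582 and 459 with PBS and to 335, 1411 and 221 with LPS. They were thus lower with LPS in wild type and knockout, where the member sums were higher. In the knockout that difference in the member sum does not describe most members. Mki67 alone went from 2720 to 3700 there. Of the 43 members, Cdkn1a included, 13 had a knockout ratio above 0, with a median of -0.10. In knockout over mutant under LPS all 6 were below 0 in the authors' deposited table with a median of -2.26, and 3 were called lower: Elane at -2.55 (adjusted p 0.00411), Prtn3 at -2.39 (0.0342) and Ctsg at -2.30 (0.0241). The erythroid markers summed to 8959, 8759 and 5866 with PBS and 13838, 17070 and 10871 with LPS, and all 8 were below 0 in that comparison with a median of -0.57. The B cell and T cell sums were lower with LPS in all 3 genotypes: B cells went from 10407 to 7905, 12896 to 4768 and 13590 to 4518, and T cells from 2806 to 2104, 3376 to 1274 and 3542 to 1203. Markers of germinal centre B cells summed to 343 to 438 with PBS and 580 to 792 with LPS, with Fas going from 68.5 to 412 in the knockout; their median ratios were -0.05, 0.29 and -0.70, and 3 of 6 were at least 2-fold lower in the knockout. Neutrophil markers summed to 1804 to 2893 and 2175 to 8346, and megakaryocyte markers to 1454 to 2060 and 1172 to 1680. None of these lists held a gene at 0 in spleen.

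**Figure D4:**
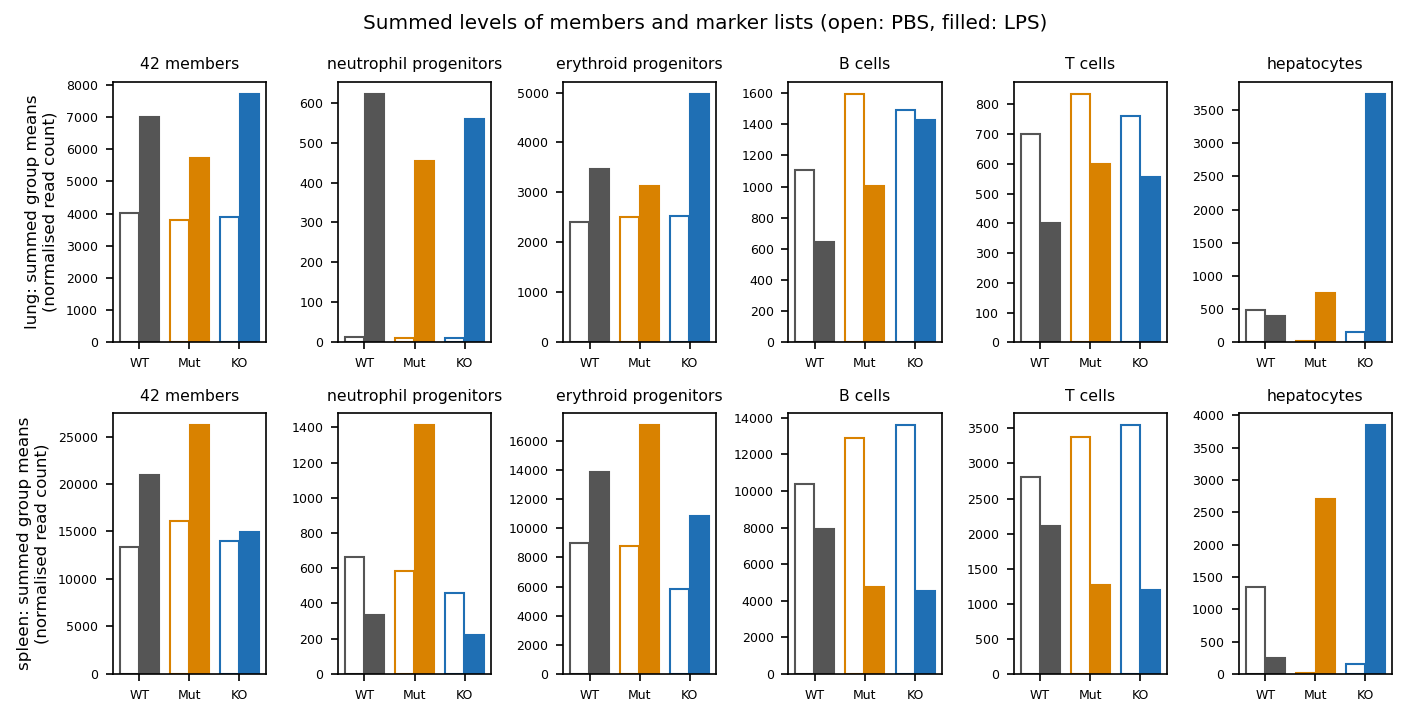
Summed group means (normalised read count) of 42 members without Cdkn1a and of 5 marker lists, in lung (top) and spleen (bottom), for wild type (WT), mutant (Mut) and knockout (KO); open bars are PBS and filled bars LPS, with no error bars because only group means were used. The mutant bar under LPS is the lowest of the 3 for members in lung (5712) and the highest in spleen (26170). The same holds for the mutant bars of neutrophil progenitor and erythroid markers. In wild type and knockout spleen the neutrophil progenitor bar is lower with LPS, while the member bar is higher. The knockout member bar goes from 14046 to 14904, and Mki67 alone goes from 2720 to 3700 there.

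Transcripts of neighbouring organs also differed between groups. Hepatocyte markers summed to 16.8 to 487 in lung with PBS and to 394, 746 and 3740 with LPS, and in spleen to 21.0 to 1344 with PBS and 245, 2706 and 3843 with LPS; Ttr was at 0 in a lung group. Pancreatic acinar markers ranged from 41.8 to 770 in lung. In spleen they summed to 1172, 24210 and 3571 with PBS and to 19180, 29060 and 11580 with LPS (wild type, mutant, knockout). Skeletal muscle markers ranged from 63.5 to 2872 in lung, with Myh4 at 0 in a group, and from 43.6 to 95.6 in spleen, with Ckm and Myh4 at 0. Lung identity held, with alveolar markers summing to 74460 or more in each lung group and to 1076 or less in spleen, and endothelial markers to 22466 or more in lung. The endothelial markers were nonetheless lower with LPS in lung, with median ratios of -1.20, -1.25 and -2.04 and 4, 5 and 5 of 8 at least 2-fold lower, and the knockout sum went from 36090 to 22466. Spleen markers were likewise present, with B cell markers at 4518 or more in each spleen group. The acinar sum was above the B cell sum in each LPS group of spleen and in mutant PBS spleen. Whether such tissue took part in the member levels was not tested.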

How the data were processed

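Poly(A) RNA libraries of 2 tissues were analysed from one deposited table per tissue; the labels give the groups. STAR 2.5.3a, Bowtie2, SAMtools, bedtools and DESeq2, with the mm10 genome, are named in the submitters' processing notes, without order or settings. Per the file headers, the authors deposited group means of normalised counts (a signal) and, for 6 genotype comparisons per tissue, a log2 fold change and an adjusted p-value; the deposited adjusted p is handled as a score, because broken lines hold other numbers there. Of 19476 lung and 18850 spleen lines, 6 and 5 broken ones were left out, and 1026 split spleen symbols were rejoined. A missing adjusted p stays missing.

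A member was called at an adjusted p under 0.05 over all entries tested. LPS and PBS were compared by log2 ratios after adding 1 to each group mean, and entries below 10 in both groups stayed out; at least 2-fold was counted, with no test. Members were taken by symbol and not by their values, but members, lists, markers and limits were chosen with earlier results of these data known. Named are all members with their role, called members with full values, the 3 highest and 3 lowest ratios per genotype and tissue, Mcm6, pathway genes called (at most 6 per comparison) or among the 2 highest and 2 lowest ratios in wild type, and the 5 entries most like Cdkn1a. Tnnc2 was singled out after its values were seen.

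Depth was inferred from means under 2, which are sums of whole reads, each worth the inverse of a library's size factor over the number of libraries. In all 12 groups such sums matched 98.7% or more of these means within 0.5% (98% was required). Counting errors follow from these depths, cover counting only and assume equal expression in the libraries of a group. The step finder and the ratio counts were tested on simulated data. Transcript lengths and overlaps came from GENCODE M21 and promoters from RefSeq. Counting is not stated to use strand. Computation used Python 3 with pandas and numpy. Alternatives tried were an adjusted p up to 0.1, 2-fold by group means, other pseudocounts and minima, centring on all entries and summing repeated rows.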

Additional observations from a re-analysis of the deposited data

How the results depend on the processing

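The counts of members kept their size within 1.5 times under the alternatives tried, apart from 3. By at least 2-fold in the group means instead of the authors' test, knockout against mutant under LPS gave 4 members in lung (higher, against 2.22% of all entries) and 10 in spleen (lower, against 5.51%). With a pseudocount of 10, 9 members of mutant lung were at least 2-fold with LPS, against 17. At an adjusted p up to 0.1 lung knockout against mutant gave 3. Median folds kept their sign in 12 of 12 comparisons from group means and in 12 of 12 after centring; the largest change was 0.17, to -0.87 for knockout against mutant spleen under LPS by group means. Of 258 single ratios, 0 past 2-fold changed sign under another pseudocount or centring. No paired analysis was possible because the tables hold group means only and no replicate numbers. For the same reason no library was left out. The depth of the shallow mutant LPS spleen library limits the precision there.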
